A study of Bos taurus with 9 samples.

Results

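The miR-17, miR-18, miR-19, miR-20, miR-93 and miR-106 families were followed in extracellular vesicles (EVs) of bovine follicular fluid. Members were the deposited loci that the study's supplementary list of known and homologous miRNA names bta-miR-17, 18a, 18b, 19a, 19b, 20a, 20b, 93, miR-106, 106a or 106b, with any arm. This rule found 9 loci of the 249 on that list, out of 101889 loci deposited, under 8 distinct names. bta-miR-18b, 20b, miR-106 and 106a have no locus on the list. The members are bta-miR-17-5p, 17-3p, 18a, 19a, 20a and 19b on chromosome 12, a further bta-miR-19b on chromosome X, and bta-miR-106b and bta-miR-93 on chromosome 25.

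Small RNA was sequenced from 9 samples of bovine follicular fluid EVs, 3 for each of 3 follicle sizes. Small follicles measured 3–5 mm across, medium follicles 6–9 mm and large follicles over 9 mm. The ovaries came from an abattoir, and neither the labels nor the study name a treatment of the animals. Fluid of all 3 sizes was taken at each collection of ovaries, so pools of different sizes can come from the same animals, but which samples share a collection is not given. Each sample was a pool of fluid from many follicles, so a value is the average of a pool, and the labels give neither the age of the animals nor the health of each follicle. Samples are named by their labels as small 1, 2 and 4, medium 5, 6 and 8, and large 10, 11 and 12.

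MicroRNAs are short RNAs that guide Argonaute proteins to partly complementary sites in mRNA, mostly through the seed at the 5′ end, and lower the output of those mRNAs. The miR-17-92 cluster is a single primary transcript that is cut into several hairpins, and it is known for promoting proliferation and survival. It has paralogous clusters, the miR-106a cluster on chromosome X and the miR-106b-25 cluster within an intron of the DNA replication gene MCM7. miR-17-5p, miR-20a, miR-93 and miR-106b share 1 seed and form the miR-17 family, miR-19a and miR-19b share another, and miR-92a and miR-25 share a further seed of their own. miR-18a has a seed close to that of the miR-17 family, and miR-17-3p is the arm opposite miR-17-5p in the same hairpin. In the ovary, granulosa cells divide rapidly in growing follicles, and miRNA of this cluster have been studied there as regulators of proliferation and differentiation.

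On the UMD3.1 assembly, the chromosome 12 cluster ran over 758 bases of the plus strand. Its loci were, in order, bta-miR-17-5p (chr12:66226567-66226590), bta-miR-17-3p (chr12:66226604-66226626), bta-miR-18a (chr12:66226702-66226724), bta-miR-19a (chr12:66226884-66226906), bta-miR-20a (chr12:66227012-66227035), bta-miR-19b (chr12:66227186-66227208) and bta-miR-92a (chr12:66227302-66227324), the last of which is a cluster mate but no member. On the minus strand of chromosome X, bta-miR-19b (chrX:17918013-17918035) lay beside a further bta-miR-92a (chrX:17917863-17917884), within 173 bases. The plus strand of chromosome 25 held bta-miR-106b (chr25:36892057-36892078), chi-miR-106b-3p (chr25:36892095-36892117), bta-miR-93 (chr25:36892259-36892282), chi-miR-25-5p (chr25:36892462-36892484) and bta-miR-25 (chr25:36892500-36892521), within 465 bases. The prefix chi marks a locus named after its goat homologue. The 3 clusters thus held 5 listed mates that are no members. In the RefSeq annotation of another assembly, used for names and neighbours only, MIR106B, MIR93 and MIR25 lie inside MCM7, and MIR106A, MIR18B and MIR20B are annotated on chromosome X.

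Total counts were between 8941598 and 14664460 per sample, whereas the 249 known and homologous loci held 1257402 to 3394554 counts in small, 437626 to 1192597 in medium and 146617 to 660594 in large samples. Those loci took from 14.1 to 26.9% of all counts in small samples, from 3.75 to 11.2% in medium samples and from 1.43 to 5.65% in large samples. Values were therefore read relative to the other known and homologous loci, as CPM of that set after TMM scaling, called normalized counts here. The part of the falling share of the set in any result was not tested. In pooled fluid, fewer vesicles of one origin and less of a miRNA per vesicle cannot be told apart. Of 4 blood cell marker loci on the list, bta-miR-150 (log2 5.68), bta-miR-486 (3.29) and bta-miR-142-5p (2.25) were more abundant in large than in small follicle EVs. Their edgeR quasi-likelihood FDR values were 0.00132, 0.00548 and 0.00374, and 17.7% of all loci were more abundant. bta-miR-451 was not called (log2 2.04, FDR = 0.0623), and its small samples (9.82 to 183) overlapped its large samples (173 to 585). The summed normalized count of the 4 loci was 490 to 2492 in small, 1534 to 2932 in medium and 7144 to 15499 in large samples, with no overlap of large with the others, and miR-144, miR-142-3p and miR-223 are not on the list. Most of that sum was bta-miR-486, with means of 949, 1617 and 9245 in small, medium and large samples. The gonadal markers bta-miR-202 and chi-miR-202-3p differed between large and small by log2 -0.08 and 0.08, with FDR = 0.916 for each in the quasi-likelihood test. Whether blood RNA had a part in the results below was not tested.

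Members held 38906, 11884 and 24409 counts in small samples 1, 2 and 4, 3305, 3289 and 6640 in medium samples 5, 6 and 8, and 737, 633 and 2012 in large samples 10, 11 and 12. As a share of the known and homologous set, members reached 0.995% ± 0.134 in small samples, 0.671% ± 0.102 in medium samples and 0.405% ± 0.0899 in large samples (SD, n = 3 each). The samples of the 3 sizes did not overlap in this share, which lay from 0.893 to 1.15% in small, from 0.557 to 0.752% in medium and from 0.305 to 0.478% in large samples. Of all counts, members took 0.213% ± 0.0703 in the small samples, 0.0393% ± 0.0200 in the medium ones and 0.0103% ± 0.00601 in the large ones (SD, n = 3 each). These sums over the members are descriptions with no test. The 95% Wilson interval of the share of the set was 1.13 to 1.16% in small 1 and 0.399 to 0.467% in large 11, the sample with the fewest counts, and covers counting error only.

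**Figure D1:**
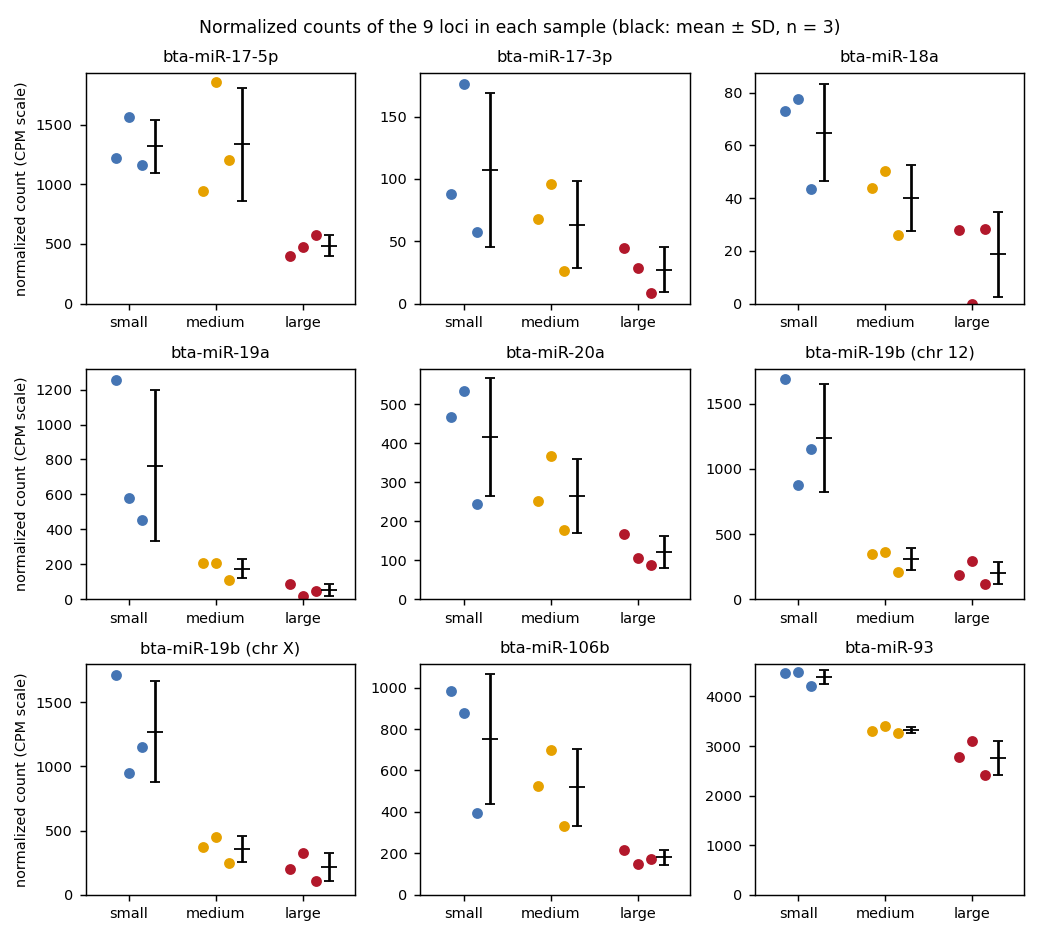
Normalized counts of the 9 family loci (vertical axes, linear, each panel with its own range from 0) in small, medium and large follicle EVs. Points are the samples, with the mean ± SD (n = 3) in black beside them. Each of the 9 loci has its 3 large samples below its 3 small samples, and bta-miR-18a is at 0 in large 11.

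Between large and small follicle EVs, 7 of the 9 members were less abundant in large follicle EVs and none was more abundant (edgeR quasi-likelihood test, Benjamini-Hochberg FDR under 0.05 over 249 loci). Over the whole list 24.5% of loci were less abundant and 17.7% more abundant in large follicle EVs at the same threshold. The list itself leans on the small samples, since the study kept loci with a mean of at least 100 counts in some size. All 9 members met this in small samples, 7 in medium and 2 in large samples, and bta-miR-17-3p and bta-miR-18a met it through small samples only, as did 72 of the 249 loci. For these loci a lower value in large samples is in part fixed by that selection, and without bta-miR-17-3p and bta-miR-18a the count is 6 of 7 members. The 24.5% of the whole list still holds the 72 loci, so it is no like comparison for 6 of 7, and the share without them was not taken. The counts and medians over the members are thus descriptions. The miR-19 loci had the greatest changes, bta-miR-106b and bta-miR-17-3p came next, and bta-miR-20a and bta-miR-17-5p followed, while bta-miR-18a and bta-miR-93 did not pass. The median log2 fold change of the members was -2.06, against -0.18 over all 249 loci. Each of the 9 members had non-overlapping large and small samples with the large ones lower, which 29.3% of all loci also had.

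The miR-19 pair carry much of the pro-survival activity known for the miR-17-92 cluster. bta-miR-19a had normalized counts of 1257, 579 and 455 in small samples 1, 2 and 4, 205, 207 and 112 in medium samples 5, 6 and 8, and 89.2, 21.3 and 46.0 in large samples 10, 11 and 12. Its samples were ordered by size with no overlap between any of the 3 groups, and small 1 stood highest. Between large and small follicle EVs it fell by 3.86 on the log2 scale (SE 0.58), a 14.6-fold change with a quasi-likelihood FDR = 0.000598. In the large samples those values rest on 16, 3 and 26 counts.

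bta-miR-19b on chromosome 12 had normalized counts of 1689, 874 and 1154 in the small samples, 350, 362 and 209 in the medium samples and 190, 291 and 120 in the large samples. All small samples were above all others, and medium and large samples overlapped. It fell by 2.66 on the log2 scale from small to large (SE 0.44, 6.31-fold, quasi-likelihood FDR = 0.00100). bta-miR-19b on chromosome X gave 1713, 950 and 1149 in small, 372, 451.1 and 245 in medium and 201, 327 and 110 in large samples, and a log2 change of -2.61 (SE 0.46, 6.12-fold, FDR = 0.00132). Chromosome 12 held 49.4% of the pair's counts over all samples and from 44.5 to 52.3% within a sample. Mature miR-19b is the same RNA at each locus, so a near even split is what a division of the same reads between the loci gives, how they were divided is uncertain, and the pair is not independent evidence.

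In the miR-17 family, whose known targets include the cell cycle inhibitor CDKN1A, bta-miR-106b had normalized counts of 985, 877 and 395 in small, 526, 699 and 330 in medium and 217, 149 and 173 in large samples. The 3 large samples were lower than every other sample, and small and medium samples overlapped. It fell by 2.06 on the log2 scale from small to large (SE 0.44, 4.17-fold, FDR = 0.00461, quasi-likelihood test). bta-miR-20a, which lies between miR-19a and miR-19b, was close to it in pattern, with 468, 534 and 245 in small, 251, 367 and 177 in medium and 167, 107 and 88.4 in large samples. For bta-miR-20a, too, the large samples lay below the rest while medium and small overlapped, and the log2 change was -1.80 (SE 0.45, 3.48-fold, FDR = 0.00831).

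bta-miR-17-5p, the first hairpin of the cluster, had normalized counts of 1221, 1566 and 1163 in small, 944, 1857 and 1199 in medium and 402, 476 and 575 in large samples. Small and medium samples were intermixed, the highest value being medium 6, and the large samples were lower than all of them. From small to large it fell by 1.44 on the log2 scale (SE 0.35, 2.71-fold, quasi-likelihood FDR = 0.00735). bta-miR-93 had normalized counts of 4470, 4488 and 4219 in small, 3298, 3404 and 3270 in medium and 2772, 3098 and 2409 in large samples. Its 3 groups stood in order of size without overlap, and the samples within a size were close, with a coefficient of variation of 3.42, 2.11 and 12.5%. The log2 value of bta-miR-93 for large versus small was -0.67 (SE 0.28, 1.59-fold), which did not pass (quasi-likelihood FDR = 0.0669).

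The remaining members had the fewest counts. bta-miR-17-3p had normalized counts of 87.9, 176 and 57.1 in small, 67.8, 95.7 and 26.1 in medium and 44.6, 28.4 and 8.84 in large samples, the last from 8, 4 and 5 counts. Its log2 change from small to large was -2.14 (SE 0.74, quasi-likelihood FDR = 0.0377), and is in part fixed by the count minimum that it met through small samples only. It passed in 4 of the 9 fits that left out 1 sample, with an FDR between 0.0286 and 0.130. bta-miR-18a had 73.2, 77.5 and 43.7 in small, 44.0, 50.1 and 26.1 in medium and 27.9, 0 and 28.3 in large samples. Large 11 had no count of bta-miR-18a at all, where 1 count would be worth 7.10 normalized counts, and the fold of 3.04 (log2 -1.60, SE 0.67, FDR = 0.0692) did not pass the quasi-likelihood test. edgeR's exact test (FDR = 0.0105) and DESeq2 (FDR = 0.0414) called it, but it too met the count minimum through small samples only.

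Between large and medium follicle EVs, 2 of the 9 members were less abundant in large, bta-miR-17-5p and bta-miR-106b, where 4.82% of all loci were. bta-miR-17-5p changed by -1.46 on the log2 scale (SE 0.35, 2.74-fold, FDR = 0.0415) and bta-miR-106b by -1.52 (SE 0.43, 2.87-fold, FDR = 0.0478) in the quasi-likelihood test. These calls held in 4 and 2, respectively, of the 9 fits with a sample left out. Medium and large samples did not overlap for bta-miR-19a, 20a, 106b, 93 and 17-5p, that is 5 of 9 members, and 17.7% of all loci were lower in this way. bta-miR-19a had log2 -1.73 (SE 0.55, FDR = 0.0555) and bta-miR-20a log2 -1.15 (SE 0.44, FDR = 0.0949). The miR-19b loci had log2 values of -0.64 and -0.78 here, with FDR = 0.324 and 0.240. The median over the members was -1.15, against 0.000289 over all loci.

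Between medium and small follicle EVs none of the 9 members passed, and 0.00% of all loci did in the edgeR quasi-likelihood test. There were 3 members and 17.7% of all loci with an unadjusted p under 0.05, and edgeR's exact test and DESeq2 each called 3 members. Over all loci the exact test called 16 of 249 and DESeq2 28 of 248, of which 8 and 9 were lower in medium. The 3 members at an unadjusted p under 0.05 were the miR-19 loci. bta-miR-19a had a log2 value of -2.13 (SE 0.51, 4.39-fold), bta-miR-19b of chromosome 12 -2.02 (SE 0.42, 4.04-fold) and bta-miR-19b of chromosome X -1.84 (SE 0.44, 3.58-fold), each with FDR = 0.0676. Medium samples lay below small samples without overlap for these and bta-miR-93, that is 4 of 9 members, against 16.9% of all loci. bta-miR-17-5p stood at log2 0.02 (SE 0.34, FDR = 0.990), and the other 5 members ranged in log2 from -0.78 for bta-miR-17-3p to -0.40 for bta-miR-93.

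With the 3 sizes tested together, 6 of the 9 members differed among sizes, against 33.7% of all loci: bta-miR-19a, both bta-miR-19b loci, bta-miR-106b, bta-miR-17-5p and bta-miR-20a (quasi-likelihood FDR from 0.00131 to 0.0244). bta-miR-17-3p, 93 and 18a had FDR = 0.0938, 0.160 and 0.165. The comparisons share their samples, so their values are only set side by side. bta-miR-19b of chromosome 12 had log2 -2.02 in medium versus small and -0.64 in large versus medium, and bta-miR-17-5p had 0.02 and -1.46.

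**Figure D2:**
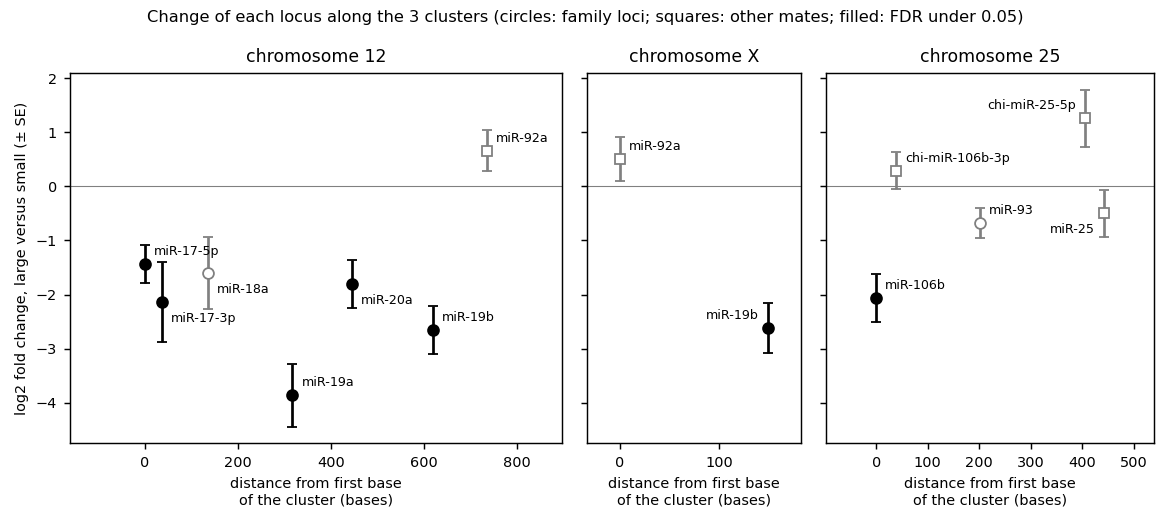
Log2 fold change of large versus small follicle EVs (vertical axis, ± SE from the quasi-likelihood test) along the 3 clusters, by distance in bases from the first base of each. Circles are family loci, squares the 5 other mates and filled points passed FDR under 0.05. On chromosome 12 the values run from -3.86 for bta-miR-19a to 0.66 for bta-miR-92a.

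Of the 5 cluster mates that are no members, none passed the quasi-likelihood test in any of the 3 comparisons (at an unadjusted p under 0.05, 1 between large and small, chi-miR-25-5p). Of all 249 loci, 61 passed as lower and 44 as higher between large and small, and 125 had an unadjusted p under 0.05. Between large and medium 12 passed as lower and 14 as higher, and between medium and small 0 passed, so there few or no loci passed at all. Other settings did call chi-miR-25-5p higher in large than in small follicle EVs, namely edgeR's exact test (FDR = 0.0418), DESeq2 (FDR = 0.0253), the quasi-likelihood test with DESeq2 size factors (FDR = 0.0496) and the quasi-likelihood test without large 10 (FDR = 0.0420). The other quasi-likelihood fits with a sample left out did not call chi-miR-25-5p, and without large 11 its log2 value was 0.74 (FDR = 0.298). Its large samples 10, 11 and 12 had 12, 27 and 51 counts, or 66.9, 192 and 90.2 normalized counts. The median log2 value of the 5 mates between large and small was 0.51. bta-miR-92a of chromosome 12 had mean normalized counts of 28326 ± 7844 in small, 26937 ± 8557 in medium and 44703 ± 16449 in large samples (SD, n = 3). Its log2 value for large versus small was 0.66 (SE 0.38, quasi-likelihood FDR = 0.182), and that of bta-miR-92a on chromosome X was 0.51 (SE 0.41, FDR = 0.332). On chromosome 25, bta-miR-25 had log2 -0.50 (SE 0.44, FDR = 0.370), chi-miR-106b-3p 0.29 (SE 0.34, FDR = 0.508) and chi-miR-25-5p 1.26 (SE 0.52, FDR = 0.0705). The directions of the mates hold within the known and homologous set only. Scaled to the total of all deposited loci, the median of the 249 loci between large and small moved by -2.88 on the log2 scale, the 5 mates then had log2 values of -3.37 to -1.77, and the members -6.83 to -3.69. All mates but chi-miR-25-5p (quasi-likelihood FDR = 0.0650) were then called lower in large, as were 191 of 249 loci. TMM over known, homologous and predicted loci called all 5 mates lower, chi-miR-25-5p with log2 -2.29 (quasi-likelihood FDR = 0.0246). TMM over all deposited loci did so too, with log2 -3.44 (FDR = 0.0150) for chi-miR-25-5p. These 2 scalings called 217 and 232 of 249 loci lower.

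For large versus small, the members' median minus that of all 249 loci was -1.88 on the log2 scale, for large versus medium -1.15 and for medium versus small -0.54. Another scaling shifts all loci of a sample alike, so by construction it moves these differences far less than the fold changes themselves. With TMM over all deposited loci the differences were -1.82, -0.94 and -0.83, in the same order of comparisons. With 1 sample left out they ran from -2.18 (without small 4) to -1.43 (without small 2) for large versus small, from -1.47 (without medium 8) to -0.76 (without large 12) for large versus medium, and from -0.81 (without small 4) to -0.29 (without medium 8) for medium versus small.

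**Figure D3:**
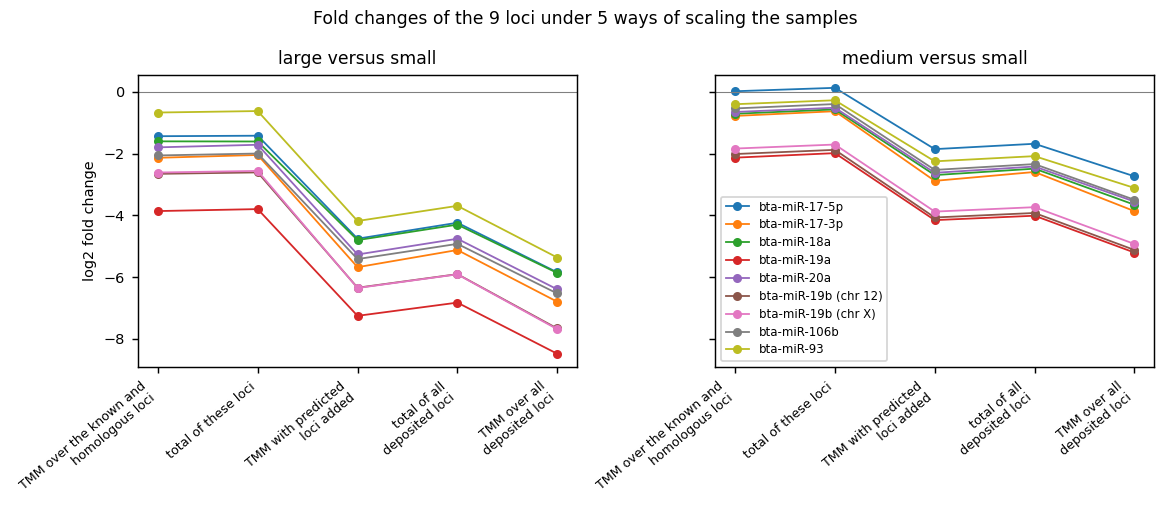
Log2 fold changes of the 9 members (vertical axis; 1 line per locus) under 5 ways of scaling the samples, for large versus small (left) and medium versus small follicle EVs (right). The order of the loci is almost kept while all values shift together, bta-miR-19a running from -3.86 to -8.48 on the left and bta-miR-17-5p from 0.02 to -2.74 on the right.

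Cluster mates were also compared within each sample, as the log2 ratio of the counts of 2 loci with 0.5 added to each, because such a ratio does not depend on how samples are scaled to each other. Trends with size were tested by an exact permutation test over the 9 samples (two-sided, 1680 arrangements, smallest possible p 0.00119), with p-values adjusted over all 30876 pairs of the 249 loci. Of the 33 pairs of mates 8 had a trend, and 33.9% of all pairs of loci did. Before adjustment 15 of the 33 pairs had an exact permutation p under 0.05, against 46.5% of all pairs. Among pairs of 2 members 1 of 17 had a trend, and among pairs of a member and another mate 7 of 13.

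The pair of members was bta-miR-19a and bta-miR-20a, which are neighbours on chromosome 12. The log2 ratio of miR-19a to miR-20a was 1.42, 0.12 and 0.89 in small samples 1, 2 and 4, -0.29, -0.82 and -0.66 in medium samples 5, 6 and 8, and -0.89, -2.15 and -0.93 in large samples 10, 11 and 12. Every small sample held more counts of miR-19a than of miR-20a, every other sample held fewer, and the 3 sizes did not overlap. The ratio fell by 2.13 from small to large (exact permutation p = 0.00119, adjusted p = 0.0112), and it passed with any 1 of the 9 samples left out. The ratio of bta-miR-17-5p to bta-miR-19a was 2.43 higher on the log2 scale in large than in small samples but missed the threshold (exact permutation p = 0.0202, adjusted p = 0.0561).

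Against bta-miR-92a at the end of the cluster, bta-miR-19a had log2 ratios of -4.31, -5.30 and -6.36 in small, -6.70, -6.76 and -8.35 in medium and -8.31, -10.76 and -10.37 in large samples. All large samples were below all small samples, and medium and large overlapped slightly, with large 10 just above medium 8. The ratio changed by -4.49 from small to large (exact permutation p = 0.00238, adjusted p = 0.0154). bta-miR-19b of chromosome 12 against the same mate had -3.88, -4.70 and -5.01 in small, -5.93, -5.96 and -7.46 in medium and -7.24, -7.19 and -8.997 in large samples, a change of -3.28 (exact permutation p = 0.00357, adjusted p = 0.0191). Medium and large samples overlapped here too, medium 8 being below large 10 and large 11. Each of these 2 trends passed with any 1 sample left out. On chromosome X, where only these mates were listed, the ratio of bta-miR-92a to bta-miR-19b rose by 3.12 (exact permutation p = 0.00357, adjusted p = 0.0191) and passed in 7 of 9 such tests. It is not independent of the chromosome 12 trend, because mature miR-19b is the same RNA at each locus. The bta-miR-92a loci share a name too, with 321784 counts on chromosome 12 and 291632 on chromosome X. How reads were divided between the bta-miR-92a loci is likewise uncertain. Ratios to bta-miR-92a, here and below, may thus not compare mates of 1 cluster only.

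For the other chromosome 12 members against bta-miR-92a, the log2 ratio in large minus small samples was -2.06 for bta-miR-17-5p, -2.36 for bta-miR-20a, -2.73 for bta-miR-18a and -2.60 for bta-miR-17-3p, with adjusted p = 0.0538, 0.0606, 0.0673 and 0.118 in the exact permutation test. bta-miR-18a and bta-miR-17-3p met the count minimum through small samples only, so a fall of their ratios is in part fixed by that selection. In large samples 10, 11 and 12 they had 5, 0 and 16 and 8, 4 and 5 counts. The ratio of bta-miR-17-5p to bta-miR-92a had large samples between -6.75 and -6.17, below its small samples of -5.003 to -3.86 and its medium samples of -4.94 to -3.60. For the arms of the miR-17 hairpin, the log2 ratio of 17-5p to 17-3p was 0.53 higher in large than in small samples (exact permutation p = 0.521, adjusted p = 0.629), with large samples from 3.09 to 5.89 around the small samples of 3.15 to 4.34.

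The arms of the miR-106b hairpin gave another picture. The log2 ratio of bta-miR-106b to chi-miR-106b-3p was 1.17, 0.67 and 0.09 in small, 0.20, 0.41 and -0.72 in medium and -0.71, -2.20 and -1.81 in large samples. In the 3 small samples the 5′ arm had the more counts and in the 3 large samples the 3′ arm, with a change of -2.21 (exact permutation p = 0.00714, adjusted p = 0.0285) that passed in 5 of 9 tests with a sample left out. On chromosome 25, 3 further ratios passed. bta-miR-106b against chi-miR-25-5p changed by -3.14 and bta-miR-93 against chi-miR-25-5p by -1.86, each with adjusted p = 0.0285 in the exact permutation test, and they passed in 5 and 3 of 9 tests with a sample left out. chi-miR-106b-3p against bta-miR-93 changed by 0.94 (exact permutation test, adjusted p = 0.0392) and passed in 1 of 9. bta-miR-106b against bta-miR-93 had a difference of -1.28 that did not pass (exact permutation p = 0.0369, adjusted p = 0.0858), with its large samples, -4.34 to -3.66, below the small ones, -3.42 to -2.18. bta-miR-93 against bta-miR-25, a near mate within MCM7, had a difference of -0.22 (exact permutation p = 0.669, adjusted p = 0.757).

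**Figure D4:**
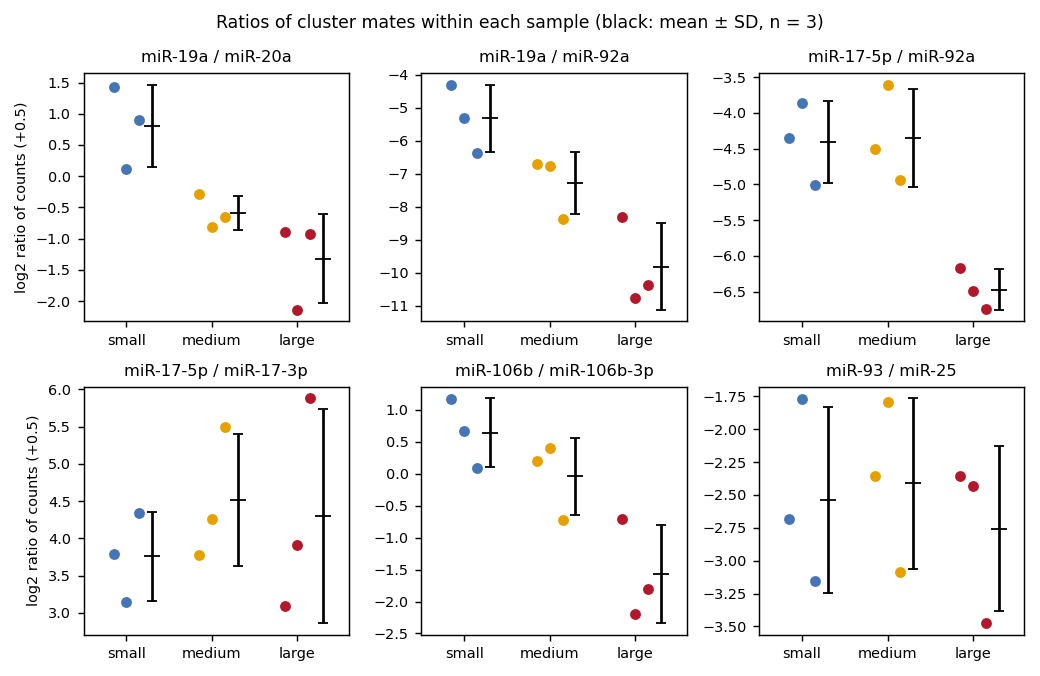
Log2 ratios of the counts of 2 cluster mates (vertical axes, 0.5 added to each count) in each of the 9 samples, by follicle size, with the mean ± SD (n = 3) in black. bta-miR-19a over bta-miR-20a falls from above 0 in the 3 small samples to between -2.15 and -0.89 in the 3 large samples.

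Levels were compared between members as normalized counts per base of locus. Mature miR-19b is the same RNA at both of its loci, so each bta-miR-19b value may be only a part of its level. The order of the loci below may thus not be the order of the RNAs, and miR-19b as a whole may stand higher. In small follicle EVs bta-miR-93 was highest at 183 per base, followed by bta-miR-19b of chromosome X (55.2), bta-miR-17-5p (54.9), bta-miR-19b of chromosome 12 (53.9), bta-miR-106b (34.2), bta-miR-19a (33.2) and bta-miR-20a (17.3), with bta-miR-17-3p (4.66) and bta-miR-18a (2.82) last. Only the steps after bta-miR-93 and after bta-miR-20a were free of overlap between neighbours in that order. In large follicle EVs bta-miR-93 (115 per base) was followed by bta-miR-17-5p (20.2), each without overlap with the next, and then bta-miR-19b of chromosomes X and 12 (9.24 and 8.71), bta-miR-106b (8.18), bta-miR-20a (5.03), bta-miR-19a (2.27), bta-miR-17-3p (1.19) and bta-miR-18a (0.814), which overlapped from one to the next. bta-miR-19a stood at rank 98 of the 249 loci per base in small, 160 in medium and 211 in large samples.

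Likeness of pattern was measured as the root mean square difference of log2 normalized counts over the 9 samples, each locus centred on its mean. bta-miR-20a and bta-miR-106b, on different chromosomes, were nearest to each other among all 249 loci at 0.235, closer than any locus that is no member, and the miR-19b loci were at 0.125. Outside the families, bta-miR-19a was nearest to bta-miR-335 (0.487), which had mean normalized counts of 4689, 938 and 231 in small, medium and large follicle EVs, and 7 such loci were nearer to bta-miR-19a than any other member was. The same count was 66 for bta-miR-93, 15 for bta-miR-17-5p, 9 for bta-miR-18a, 2 for bta-miR-17-3p and 0 for each remaining member. bta-miR-17-5p was nearest to chi-miR-1307-5p (0.295), bta-miR-93 to bta-miR-16a (0.0917), bta-miR-18a to bta-miR-429 (0.469) and bta-miR-17-3p to bta-miR-101 (0.449). bta-miR-1839 was the nearest such locus to both bta-miR-20a (0.346) and bta-miR-106b (0.305), bta-miR-1388-5p to bta-miR-19b of chromosome 12 (0.552) and bta-miR-146b to that of chromosome X (0.568). The median over all loci was from 0.745 for bta-miR-93 to 2.17 for bta-miR-18a.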

How the data were processed

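Per the methods of the study, the authors trimmed adapters, mapped reads with bwa 0.7.5a to UMD3.1, merged mapped reads into loci with a minimum read depth and deposited raw counts per locus, which were used as deposited. How reads that match several loci were placed is not given in the sources used here. Groups are the follicle sizes of the labels. In R 4.3.3 with edgeR 4.0.16, counts of the 249 known and homologous loci were scaled by TMM and tested with 1 quasi-likelihood fit of the 3 sizes (two-sided, limma 3.58.1), with Benjamini-Hochberg adjustment over 249 loci and FDR under 0.05 as a call. SE is the log2 fold change over the root of F. No low-count filter was used, and filterByExpr kept all 249. Ratios were tested and figures drawn with pandas 2.3.3, scipy 1.17.1, numpy 2.4.6 and matplotlib 3.10.9 under Python 3.11.15. Tests were tried on simulated data.

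Depth was 8941598 to 14664460 counts per sample, and 3 counts is the floor of detection, from 2.05e-05 to 3.36e-05% of the total, for counting error only. PCR copies carry no molecular identifiers. Pools of the 3 sizes were taken from shared collections of ovaries and can share animals, but the collection of each sample is not given, so no fit has a term for it and p-values measure the spread between these pools, collections included. Members and lists were chosen with earlier results of these data known. Named loci are the members, listed loci within the 3 clusters, the nearest locus in pattern to each member, blood and gonad markers, and deposited loci within 1000 bases of a cluster. Loci that share a seed with a member were to be named too, but this was not done for want of sequences. Other settings tried were DESeq2 1.42.0 and its size factors, edgeR's exact test, 4 other scalings, filterByExpr, FDR under 0.1, fits of 2 sizes, the miR-19b loci summed, other added values and leaving out each sample.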

Additional observations from a re-analysis of the deposited data

How the results depend on the processing

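The number of members less abundant in large than in small follicle EVs was 7 and stayed between 6 and 9 under every alternative, and between 6 and 7 with 1 sample left out. Over all 249 loci the number lower was 61, and 35 to 65 with 1 sample left out. It was 217 with TMM over known, homologous and predicted loci, and 191 with the total and 232 with TMM of all deposited loci. Under those scalings most loci of the list were lower too. bta-miR-19a, both bta-miR-19b loci, bta-miR-106b, 20a and 17-5p passed with any sample left out. bta-miR-18a passed in edgeR's exact test (FDR = 0.0105) and DESeq2 (0.0414), and bta-miR-93 in DESeq2 (0.0495). For large versus medium (2 members), the count was 4 at FDR under 0.1, 7 with TMM over known, homologous and predicted loci, 0 with the total or TMM of all deposited loci, 0 in a fit of the 2 sizes only, and 0 to 2 with a sample left out. Over all 249 loci the number lower was 12, and 43 with TMM over known, homologous and predicted loci. It was 0 with the total or TMM of all deposited loci and in a fit of the 2 sizes only, and 0 to 15 with a sample left out. The share of all loci at FDR under 0.1 was not taken for any comparison. For medium versus small (0 members), the count of members was 3 at FDR under 0.1, 3 by the exact test, 3 by DESeq2, 8 with TMM over known, homologous and predicted loci, 7 with the total and 8 with TMM of all deposited loci, and 0 to 3 with a sample left out. Over all loci the exact test called 16 of 249 and DESeq2 28 of 248. The 3 scalings, in the same order, called 101, 59 and 109 of 249 loci, all lower in medium, and fits with a sample left out 0 to 13. For any difference (6 members) the count of members was 3 to 6 with a sample left out, the 3 being without large 11. That fit called 38 of all 249 loci, against 84 in the main fit. Of the ratios of mates 8 passed, 15 before adjustment, and 3 to 9 with a sample left out (3 without small 1, 4 without small 2, 5 without medium 8). Over all pairs of loci the share called was 33.9%, and it was lower with any sample left out. This share was lowest without small 1, 22.8% without small 2 and 25.1% without medium 8. Without small 4 and without large 10, where 9 ratios of mates passed, the share was 25.1 and 29.7%. Scaling to other totals moves a share by its construction: members took 0.995, 0.671 and 0.405% of the set in small, medium and large follicle EVs, and 0.434, 0.113 and 0.0379% of loci of 18 to 30 bases. The sign of bta-miR-17-5p in medium versus small (0.02) turned to -1.86 with TMM over known, homologous and predicted loci, -1.68 with the total and -2.74 with TMM of all deposited loci, and ran from -0.30 to 0.21 with a sample left out. Differences of ratios near 0 turned sign too: 17-3p to 18a was -0.14 with 1 added to each count and 18a to 19b of chromosome 12 -0.25 with 0.1 added. With a sample left out, 17-5p to 17-3p ran from -0.26 to 1.14, 17-5p to 18a from -0.36 to 1.32, 17-5p to 20a from -0.041 to 0.68, 17-3p to 18a from -1.09 to 1.29, 17-3p to 20a from -0.49 to 0.22, 18a to 20a from -1.07 to 0.60, 18a to 19b from -0.27 to 1.89, 93 to 25 from -0.53 to 0.16 and 19b of chromosome 12 to that of X from -0.078 to 0.070. The causes of these changes were not tested. No paired analysis was possible because the size groups share no replicate numbers and the collection of each sample is not given. Depth limits the large samples, where bta-miR-17-3p, 18a and 19a rest on 0 to 26 counts each.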

Other observations

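Deposited loci that are not on the list of known and homologous miRNA were few beside the clusters. Within 1000 bases of the chromosome 12 cluster there were 3, with 256 counts in all, 1 lay at the chromosome 25 cluster and 0 at the chromosome X cluster. The locus at chr25:36892296-36892320, just after bta-miR-93, had 82, 40 and 96 counts in small, 10, 10 and 43 in medium and 6, 3 and 17 in large samples. The locus at chr12:66227048-66227070, just after bta-miR-20a, had 47, 21 and 20 counts in small, 0, 5 and 1 in medium and 0 in each large sample. The large samples allow up to 3 counts each, and no fold was computed. The loci at chr12:66226743-66226765 and chr12:66227265-66227287, beside bta-miR-18a and ahead of bta-miR-92a, summed to 39, 27 and 22 and to 44, 19 and 11 counts over the small, medium and large samples. These are raw counts that are not scaled for depth, and none was tested.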
